A study of Mus musculus with 18 samples.

Results

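Long-term haematopoietic stem cells (LT-HSCs) cultured in acid medium at pH 6.9 under the library index 706 were set against LT-HSCs cultured at pH 7.4 under index 708. The comparison holds 6 of the 18 libraries of the series, 3 on each side. They were chosen by the first index (i7, a tag read with each library) and the pH in the labels, and no measured value entered the choice. The libraries labelled pH 6.9, index 706, come from mice 2, 4 and 6, cultured for 48 h, and the libraries labelled pH 7.4, index 708, come from the same mouse numbers, also cultured for 48 h. The other libraries are pH 6.9 with index 705 and pH 7.4 with index 707 from mice 1, 3 and 5, fresh cells with index 702 from mice 2, 4 and 6, and fresh cells with index 701 from mice 1, 3 and 5. Index and pH change together in the comparison, so that an effect of pH and one of the set of libraries that shares an index cannot be told apart within it. The fresh cells are labelled pH 7.4, uncultured. All groups are wild type mice of 8 to 12 weeks, named B6.SJL in one label and c57 B6 WT in another. Each library was made from 100 sorted cells. Both cultures were in IMDM with 10% FBS under 3% O2 and 5% CO2, with the cytokines mSCF, GCSF and mTPO, each at 50 ng/ml.

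LT-HSCs sit at the root of blood formation and stay mostly quiescent in the marrow. Quiescence is a state with low protein synthesis and low mitochondrial activity, in which lysosomes and autophagy also play a part. On activation they build ribosomes and mitochondria before they divide. Polyamines (putrescine, spermidine and spermine) are small cations made from ornithine, and spermidine also donates the group that turns a lysine of the translation factor eIF5A into hypusine. The series names pH and polyamines in its title, and the comparison bears on how acid medium changes the cultured cells.

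Total counts were 1640817 to 4734840 in the pH 6.9 libraries and 3880653 to 6484978 in the pH 7.4 libraries, and 11536 to 12516 and 12163 to 12792 genes had a count. An exact two-sided permutation test of total counts, genes detected, the share of the 20 highest genes and the share of ribosomal protein genes gave adjusted p = 0.3 for each, where 3 against 3 allows no p below 0.1 before adjustment. The mean share of counts from cytosolic ribosomal protein genes was 3.37% (SD 0.496, n = 3) at pH 6.9, against 4.06% (SD 0.848, n = 3) at pH 7.4.

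The 6 libraries did not group by pH alone. Pearson's r of log2 CPM (counts per 1e+06 scaled counts) was 0.903 to 0.924 among the pH 6.9 index 706 libraries, 0.893 to 0.918 between them and the pH 7.4 index 708 libraries, and 0.880 to 0.925 between them and the pH 7.4 index 707 libraries of the other mice. The nearest library of mouse 4 and of mouse 6 at pH 6.9 was one of index 707 at pH 7.4. The pH 7.4 index 708 libraries were closer to each other, at 0.958 to 0.975, and reached 0.931 to 0.962 with the fresh cells of index 701. With edgeR, 0 genes (0% of those tested) passed between index 706 at pH 6.9 and index 707 at pH 7.4, with 447 at an unadjusted p under 0.05, 2 genes by DESeq2 and 0 by limma-voom, whereas 358 (3.19%) passed between the index 708 and index 707 libraries, both labelled pH 7.4. The index 708 libraries differed from those of pH 6.9, index 705, in 422 genes (3.76%). Between index 708 after 48 h of culture and fresh cells, 2 genes (0.0178%) passed against index 701, with 309 at an unadjusted p under 0.05, and 13 (0.116%) passed against index 702. The libraries labelled pH 7.4, index 708, thus had fewer genes past the threshold against fresh cells than against the other cultures of that pH, although each fresh set has 2 libraries in the fit and index 707 has 3. The cause was not tested. Whether the labels or first indices of some sets were exchanged was not tested either, and an exchange would change what pH 6.9 and pH 7.4 mean in every value below, so that each direction holds for the libraries as labelled.

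**Figure D1:**
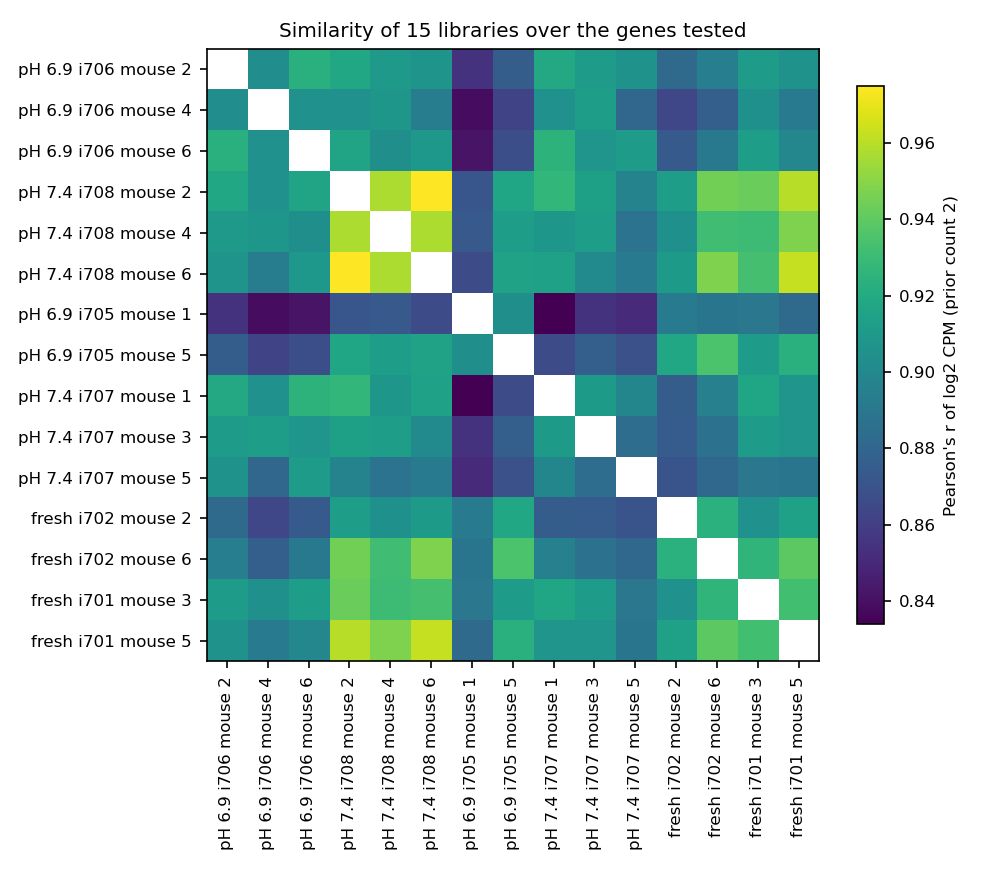
Pearson's r of log2 CPM over the genes tested for each pair of the 15 libraries, in the order of group and index (i706 to i701) and mouse. The index 708 libraries form a block at 0.958 to 0.975 that extends to the fresh libraries, while those of index 706 reach 0.925 with index 707 and 0.924 among themselves.

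Between pH 6.9, index 706, and pH 7.4, index 708, 700 of 11226 genes tested (6.24%) passed an adjusted p of 0.05 in edgeR's quasi-likelihood test, 301 higher (2.68%) and 399 lower (3.55%) at pH 6.9. The lower ones included genes of ribosome assembly, translation, protein folding, mitochondria and nucleotide synthesis, and Srm and Odc1 of polyamine synthesis. The higher ones included genes of lysosomes, cell cycle arrest, glutathione synthesis and adhesion. The 3 and 3 libraries did not overlap in 3485 genes (31%), and 698 of the 700 genes were among them. The number of calls depended on which libraries were in the fit. With only the 6 libraries compared it was 1347, of which 694 were among the 700. With pH 6.9 index 705 replicate 3, a library with few genes detected, added to the 15 libraries of the fit it was 10, and with all 18 libraries 0, with 583 at an unadjusted p under 0.05. Without mouse 2, 4 or 6 at pH 6.9 the count was 479, 342 and 203, and without mouse 2, 4 or 6 at pH 7.4 it was 349, 431 and 163. All 700 genes kept their direction in each of these fits that tested them. The counts of list members below are from the 15 libraries, and with all 18 libraries none of them passes. Each is to be read beside the shares over all genes tested, 2.68% higher and 3.55% lower.

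**Figure D2:**
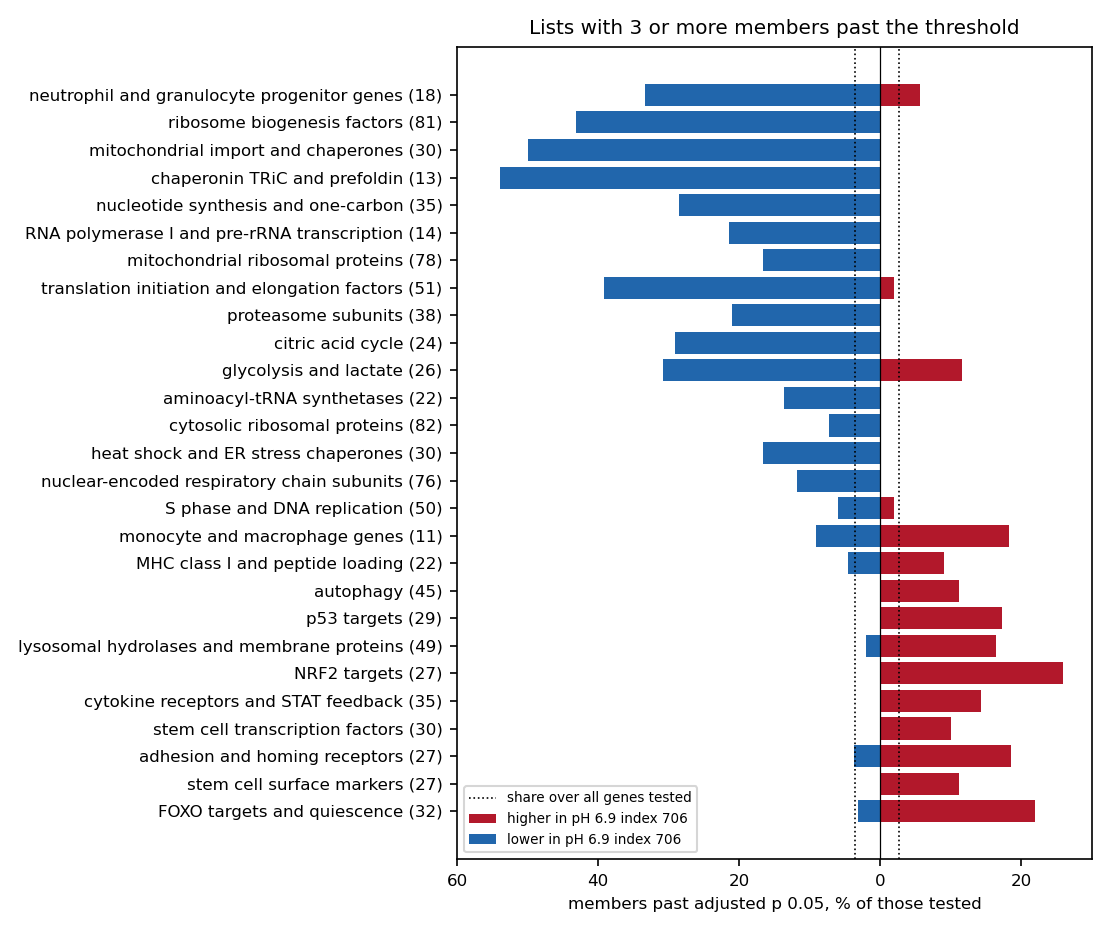
Share of tested members past the threshold in each list with 3 or more such members (number tested in brackets), higher in pH 6.9 index 706 to the right and lower to the left, ordered by the list's median fold change. Dotted lines mark the shares over all genes tested, 2.68% higher and 3.55% lower.

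Srm and Odc1, enzymes on the way to spermidine, fell at pH 6.9, and Smox and Sat1, enzymes of polyamine breakdown, rose. Srm, spermidine synthase (chromosome 4, 148591503 to 148594993, plus strand, GRCm38), stood at 289, 194 and 199 CPM in mice 2, 4 and 6 at pH 6.9, against 627, 729 and 827 CPM in the same mouse numbers at pH 7.4. Every pH 6.9 library was below every pH 7.4 library. Its log2 fold change was -1.68 ± 0.22 (SE, adjusted p = 0.000471), and the call held without any 1 of the 6 libraries. Odc1, ornithine decarboxylase, which makes putrescine (chromosome 12, 17544794 to 17551505, plus strand), stood at 246, 298 and 290 CPM at pH 6.9, against 441, 448 and 462 CPM at pH 7.4. It fell by a smaller amount (-0.70 ± 0.16, adjusted p = 0.0139), and this call was lost without mouse 2 at pH 6.9 or mouse 6 at pH 7.4. Among the 12 tested genes of polyamine synthesis, Srm and Odc1 were the 2 past the threshold, 11 had a negative fold change and the median was -0.56, against a median of 0.07 over all genes tested. Sms, spermine synthase, had 39.6, 51.9 and 60.2 CPM at pH 6.9 and 81.7, 80.9 and 67.1 CPM at pH 7.4 (adjusted p = 0.290). Amd1, which supplies the aminopropyl donor, overlapped between the groups (adjusted p = 0.579), and reads of it and its near-identical copy Amd2 may have been split by the counting.

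On the breakdown side, Smox, spermine oxidase, stood at 29.6, 44.0 and 23.3 CPM at pH 6.9 and at 7.55, 10.9 and 7.12 CPM at pH 7.4. The groups were well apart, with a log2 fold change of 1.92 ± 0.38 (adjusted p = 0.00627, lost without mouse 6 at pH 7.4 at 0.0561). Sat1, the acetyltransferase that marks spermidine and spermine for export or oxidation (X chromosome, 155213132 to 155216449, minus strand), stood at 227, 164 and 233 CPM at pH 6.9, against 82.5, 102 and 104 CPM at pH 7.4. It rose by 1.11 ± 0.29 (adjusted p = 0.0283), a call that held without mouse 4 at pH 6.9 and was lost without any other library, up to an adjusted p of 0.128; with the mouse number as a block it was 0.0555. These were the 2 past the threshold of 10 tested genes of breakdown, antizymes and transport, against 2.68% higher over all genes tested. The list as a whole was split, with 5 positive and 5 negative fold changes and a median of 0.25. The antizyme Oaz1, which sends ornithine decarboxylase to the proteasome, did not pass (log2 fold change -0.21 ± 0.17, adjusted p = 0.541). Eif5a, the protein that carries hypusine, stood at 2409.5, 2098 and 1819 CPM at pH 6.9 and 3919, 4334 and 4051 CPM at pH 7.4 (-0.96 ± 0.16, adjusted p = 0.00187). The enzymes that make hypusine, Dhps and Dohh, were lower in all 3 pH 6.9 libraries than in any pH 7.4 library but did not pass (adjusted p = 0.288 and 0.226). Over all genes tested, 15.5% were lower at pH 6.9 without overlap in the same way.

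Ribosome assembly had the most lower genes of the 46 lists by number. By share of members it stood at 43.2%, behind TRiC with prefoldin (53.8%) and mitochondrial import and chaperones (50%). Of 81 tested ribosome biogenesis factors, 35 were lower at pH 6.9 and 0 higher, against 3.55% and 2.68% over all genes, and their median log2 fold change was -0.73. By mouse number, the median log2 ratio of pH 6.9 to pH 7.4 over these 81 genes was -0.53 in mouse 2, -0.70 in mouse 4 and -0.91 in mouse 6, while over all genes it was 0 in mouse 2, 0.02 in mouse 4 and 0.06 in mouse 6. The 35 became 29, 21 and 9 without mouse 2, 4 or 6 at pH 6.9, and 23, 25 and 8 without mouse 2, 4 or 6 at pH 7.4. Npm1, nucleophosmin, an abundant nucleolar chaperone (chromosome 11, 33152287 to 33163206, minus strand), stood at 832, 774 and 548 CPM at pH 6.9, against 1759, 1708 and 1959 CPM at pH 7.4 (-1.33 ± 0.20, adjusted p = 0.00118). Ncl, nucleolin, had 797, 734 and 701 CPM at pH 6.9 and 1552, 1400.3 and 1539.8 CPM at pH 7.4 (-1.01 ± 0.17, adjusted p = 0.00187). Utp15, a part of the complex that processes the small subunit's RNA, had 68.6, 66.6 and 62.6 CPM at pH 6.9 and 160, 139 and 166 CPM at pH 7.4 (-1.23 ± 0.20, adjusted p = 0.00187). All 3 calls held without any 1 library. Of 14 tested genes of RNA polymerase I, which transcribes the ribosomal RNA genes, and its factors, Taf1d, Polr1e and Polr1d passed, each lower, and each of these calls was lost without mouse 4 or mouse 6 at pH 6.9 or mouse 6 at pH 7.4.

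Promoters of some ribosome assembly genes hold CACGTG, the E-box hexamer, known to be bound by MYC with MAX and by related factors. In RefSeq promoters of GRCm38.p6 (250 bases before to 50 after the start), a promoter was found for 9102 of the 11226 genes, and 1087 of these (11.9%) held the hexamer, which reads the same on both strands. It was in 15 of 70 ribosome biogenesis factors with a promoter (21.4%), in 5 of 31 of those past the threshold (16.1%), in 65 of 332 lower genes (19.6%) and in 26 of 227 higher genes (11.5%). The share was also high in lysosomal genes, at 12 of 39 (30.8%), a list with a positive median, and in 1 of 7 of its members past the threshold (14.3%). Of the 5, the 3 with the smallest p are shown as examples of where the hexamer, in capitals, lies just after the start site. Utp4 (chr8:106893390-106893689, plus strand) and Wdr43 (chr17:71615965-71616264, plus strand) belong to the small subunit's processing complex, and Pno1 (chr11:17211540-17211839, minus strand) helps cut its RNA.
Utp4 promoter: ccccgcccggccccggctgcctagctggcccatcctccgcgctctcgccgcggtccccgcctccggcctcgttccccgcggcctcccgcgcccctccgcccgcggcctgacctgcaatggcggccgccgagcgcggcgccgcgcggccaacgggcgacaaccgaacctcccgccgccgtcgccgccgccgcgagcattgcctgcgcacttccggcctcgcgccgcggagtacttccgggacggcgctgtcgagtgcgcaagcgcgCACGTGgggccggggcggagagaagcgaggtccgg
Pno1 promoter: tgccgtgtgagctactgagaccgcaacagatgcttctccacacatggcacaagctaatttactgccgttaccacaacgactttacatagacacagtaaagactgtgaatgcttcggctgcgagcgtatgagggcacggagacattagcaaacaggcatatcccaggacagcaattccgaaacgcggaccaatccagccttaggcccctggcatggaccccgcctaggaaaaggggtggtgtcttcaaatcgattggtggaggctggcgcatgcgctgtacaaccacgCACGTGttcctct
Wdr43 promoter: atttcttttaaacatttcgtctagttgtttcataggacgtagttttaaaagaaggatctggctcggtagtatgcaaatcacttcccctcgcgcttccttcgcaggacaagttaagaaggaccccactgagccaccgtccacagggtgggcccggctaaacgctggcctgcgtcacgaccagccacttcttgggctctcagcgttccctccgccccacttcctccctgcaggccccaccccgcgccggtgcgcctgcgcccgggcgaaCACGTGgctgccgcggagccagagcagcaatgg
The hexamer begins 15 bases after the start in Utp4, 37 in Pno1 and 17 in Wdr43. Myc, the factor's own gene, stood at 604, 373 and 430 CPM at pH 6.9 and 626, 475 and 706 CPM at pH 7.4, groups that overlapped (adjusted p = 0.491).

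Translation factors and subunits of a chaperonin were also among the genes that fell. Of 51 translation initiation and elongation factors, 20 were lower and 1 higher (median -0.48), where 3.55% of all genes tested were lower and 2.68% higher. Eif4e, which binds the cap of mRNAs, stood at 456, 425 and 392 CPM at pH 6.9 and 643, 827 and 877 CPM at pH 7.4 (-0.88 ± 0.17, adjusted p = 0.00486). Eif4a1, the helicase of the same complex, stood at 1129, 1355 and 1079 CPM at pH 6.9 and 1854, 2085 and 2038 CPM at pH 7.4 (-0.75 ± 0.15, adjusted p = 0.00627). Of the 13 tested genes of the chaperonin TRiC, which folds actin and tubulin, and its partner prefoldin, 7 were lower, all of them TRiC subunits. The lead subunit, Tcp1, had 674, 650 and 532 CPM at pH 6.9 and 1136, 1216 and 1336 CPM at pH 7.4 (-0.99 ± 0.16, adjusted p = 0.00148). Cytosolic ribosomal protein genes passed in 6 of 82, all lower, with a median of -0.39 and 74 of 82 negative, but in mouse 4 the median log2 ratio was -0.04 and 43 of the 82 were lower. Rpl5 stood at 46.7, 43.4 and 40.3 CPM at pH 6.9 and 104, 105 and 117 CPM at pH 7.4 (-1.33 ± 0.24, adjusted p = 0.00340). Proteasome subunits and assembly factors passed in 8 of 38, and all 38 had a negative fold change (median -0.48). Of the 22 aminoacyl-tRNA synthetase genes, Farsb, Rars and Aimp2 passed, all lower, and each call was lost in 3 of the 6 fits without 1 library (adjusted p up to 0.0986, 0.0864 and 0.106), mouse 6 of either group among them. The cytosolic chaperones Hspa8 (3736, 3174 and 2940.0 CPM at pH 6.9 and 4984, 5939.7 and 6183 CPM at pH 7.4) and Hsp90aa1 were among 5 lower of 30 heat shock and endoplasmic reticulum chaperones, with Calr and, chosen after their values were seen, Hsp90ab1 and Hsp90b1. Calr did not pass with the mouse number as a block (adjusted p = 0.0712).

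These counts were uneven in how far they rested on single libraries. TRiC kept 5 to 7 calls without any 1 library. Translation factors kept 12, 7 and 4 without mouse 2, 4 or 6 at pH 6.9 and 11, 8 and 4 without mouse 2, 4 or 6 at pH 7.4. For the proteasome the counts were 4, 1 and 0, and 3, 2 and 0, in the same order, and for the heat shock list 3, 2 and 2, and 2, 4 and 2. Cytosolic ribosomal protein genes had 5, 1 and 1, and 3, 16 and 1. Many genes of ribosomal proteins, Npm1 and Eif5a have pseudogene copies, and the sources used here do not give how reads were shared with these, so that their levels are uncertain.

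Some nuclear genes of mitochondria fell at pH 6.9, where 3.55% of all genes tested were lower. Of 30 import and chaperone genes 15 were lower (median -0.70), of 78 mitochondrial ribosomal protein genes 13 (-0.48), of 24 citric acid cycle genes 7 (-0.47, with all 24 negative) and of 76 respiratory chain genes 9 (-0.33), and none of these genes passed as higher. In mice 2, 4 and 6 the median log2 ratio of pH 6.9 to pH 7.4 was -0.41, -0.63 and -0.82 for import genes and -0.21, -0.49 and -0.67 for mitochondrial ribosomal proteins. For respiratory chain genes it was -0.23, 0.04 and -0.64, and in mouse 4 only 34 of the 76 were lower. Phb2, a prohibitin of the inner membrane, stood at 275, 255 and 245 CPM at pH 6.9 and 535, 581 and 581 CPM at pH 7.4 (-1.13 ± 0.18, adjusted p = 0.00161). Mrpl12, a protein of the mitochondrial ribosome, stood at 163, 160 and 127 CPM at pH 6.9 and 348, 413 and 372 CPM at pH 7.4 (-1.34 ± 0.20, adjusted p = 0.000898). Mdh2, the cycle's malate dehydrogenase, stood at 671, 573 and 543 CPM at pH 6.9 and 1087, 1247 and 1303 CPM at pH 7.4 (-1.03 ± 0.18, adjusted p = 0.00308). Cyc1, cytochrome c1 of complex III, stood at 256, 174 and 170 CPM at pH 6.9 and 397, 419 and 431 CPM at pH 7.4 (-1.06 ± 0.19, adjusted p = 0.00340). In all 4 genes the groups did not overlap and the call held without any 1 library. The list counts fell furthest without mouse 6 at pH 6.9, to 5, 1, 2 and 1 in the order above, and without mouse 6 at pH 7.4, to 7, 1, 2 and 1. Without mouse 4 at pH 6.9 they were 9, 4, 3 and 3, without mouse 2 at pH 6.9 they were 12, 9, 4 and 8, and without mouse 2 or 4 at pH 7.4 they were 12, 7, 4 and 8, and 12, 5, 3 and 8.

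Of 26 genes of glycolysis and lactate, 8 were lower and 3 higher. Slc16a1, the transporter MCT1 that carries lactate together with a proton (chromosome 3, 104638668 to 104658462, plus strand), stood at 65.7, 67.8 and 55.4 CPM at pH 6.9 and 240, 206 and 259 CPM at pH 7.4 (-1.90 ± 0.28, adjusted p = 0.000898). It was the only one of 17 genes of acid-base transport and proton sensing past the threshold. That is 5.88% of the list, close to the 6.24% over all genes tested. Pgk1, a kinase that makes ATP in glycolysis, stood at 522, 507 and 467 CPM at pH 6.9 and 847, 929 and 933 CPM at pH 7.4 (-0.86 ± 0.15, adjusted p = 0.00295). The higher genes were Pdk2 and, chosen after their values were seen, Pdk4 and Ldhb. Pdk2 and Pdk4 are kinases that switch off pyruvate dehydrogenase. Pdk2 stood at 40.8, 40.9 and 39.1 CPM at pH 6.9 and 7.81, 11.7 and 6.15 CPM at pH 7.4 (2.23 ± 0.39, adjusted p = 0.00276), with no overlap. The 3 higher genes became 2, 1 and 2 without mouse 2, 4 or 6 at pH 6.9 and 1, 2 and 1 without mouse 2, 4 or 6 at pH 7.4, and the 8 lower became 5 without mouse 6 of either group and 6 to 9 otherwise. Nucleotide synthesis had 10 of 35 genes lower and 0 higher (median -0.63). There Nme1, which balances the nucleoside triphosphates, stood at 422, 394 and 331 CPM at pH 6.9 and 698, 784 and 818 CPM at pH 7.4 (-1.004 ± 0.18, adjusted p = 0.00308). The 10 became 7, 7 and 3 without mouse 2, 4 or 6 at pH 6.9 and 6, 9 and 2 without mouse 2, 4 or 6 at pH 7.4.

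**Figure D3:**
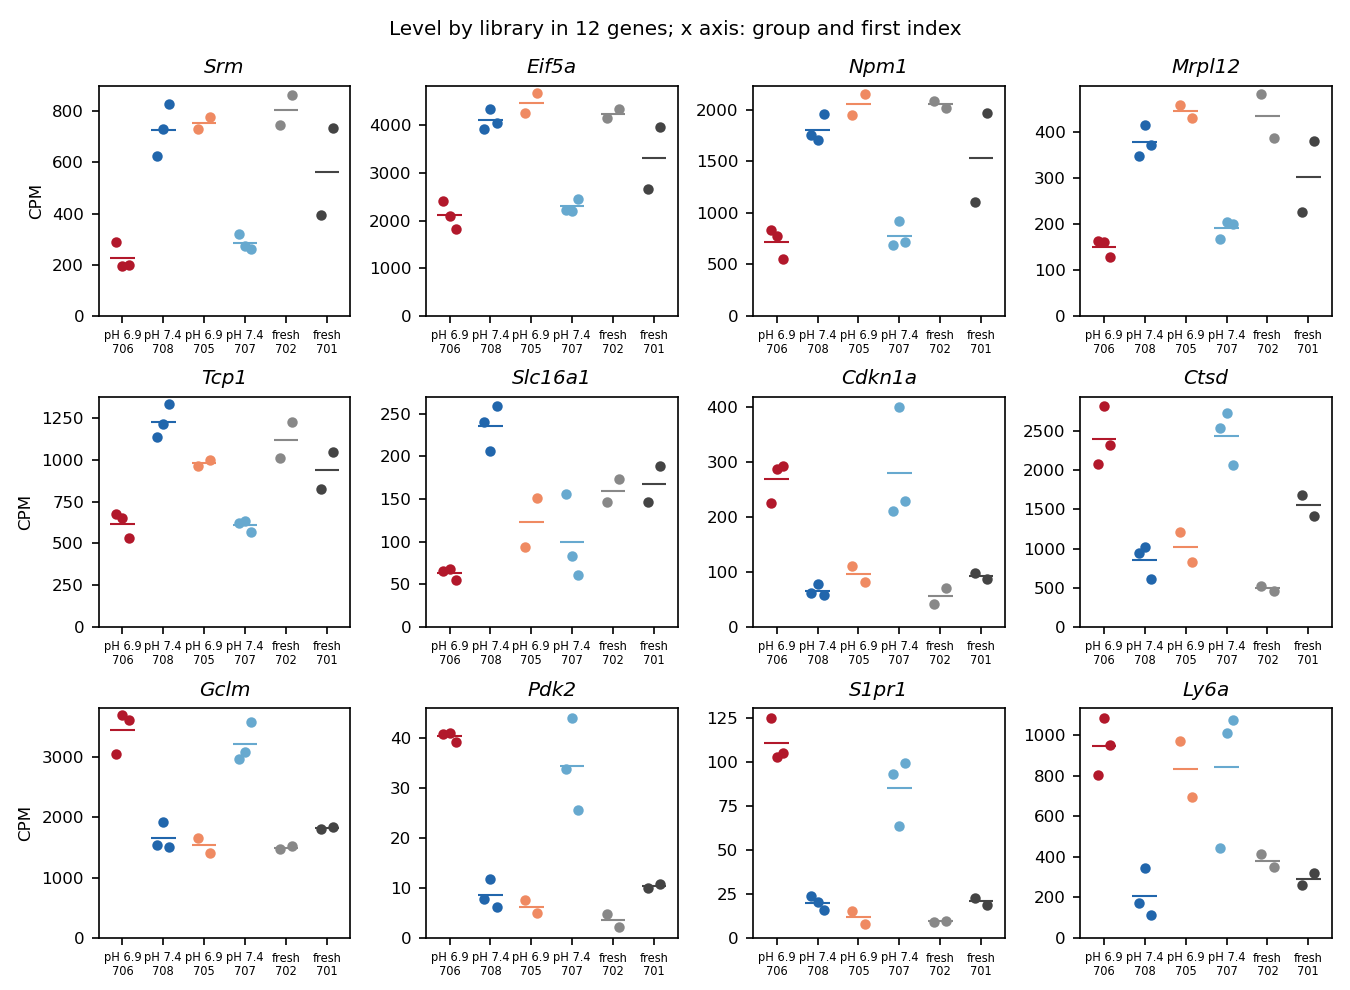
CPM of 12 genes in each of the 15 libraries (points) with the mean of each set (line), by group and first index. In index 706 and 707 the first 5 genes are low and Cdkn1a, Ctsd, Gclm, Pdk2 and S1pr1 high, and index 708, index 705 and fresh index 702 stand the other way; Ly6a is lower in index 708 than in index 706 and Slc16a1 higher.

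Lysosome and autophagy genes leaned the opposite way. Of 49 lysosomal hydrolase and membrane genes, 8 were higher and 1 lower at pH 6.9 (median 0.43), and of 45 autophagy genes 5 were higher and 0 lower (median 0.40). The shares over all genes tested were 2.68% higher and 3.55% lower. Ctsd, the protease cathepsin D, stood at 2081, 2817 and 2316 CPM at pH 6.9 and 941, 1024 and 609 CPM at pH 7.4 (1.49 ± 0.20, adjusted p = 0.000563). Sqstm1, the autophagy receptor p62, stood at 489, 487 and 646 CPM at pH 6.9 and 255, 207 and 159 CPM at pH 7.4 (1.39 ± 0.22, adjusted p = 0.00140). Both calls held without any 1 library. The other higher autophagy genes were Sesn1, Calcoco1 and, chosen after their values were seen, Gabarap and Map1lc3b. Of the 18 tested genes of the vacuolar proton pump, which acidifies lysosomes, 0 passed in edgeR and in DESeq2 and 1 in limma-voom, with 1 at an unadjusted p under 0.05 in edgeR, and their median was 0.18. The 8 lysosomal genes became 7, 5 and 4 without mouse 2, 4 or 6 at pH 6.9 and 4, 6 and 3 without mouse 2, 4 or 6 at pH 7.4, and the 5 autophagy genes 4, 3 and 1, and 2, 2 and 1, in the same order. With the mouse number as a block the autophagy count was 3.

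Genes of growth arrest and of glutathione synthesis were higher at pH 6.9. Of 32 FOXO targets and quiescence genes, 7 were higher and 1 lower, with a median of 0.95. Cdkn1a, the cell cycle inhibitor p21 (chromosome 17, 29090976 to 29100727, plus strand), stood at 225, 286 and 293 CPM at pH 6.9 and 60.9, 77.6 and 58.7 CPM at pH 7.4 (2.03 ± 0.26, adjusted p = 0.000471). Ypel3, a gene linked to growth arrest, stood at 461, 401 and 450 CPM at pH 6.9 and 73.4, 120 and 49.7 CPM at pH 7.4 (2.43 ± 0.33, adjusted p = 0.000742). Txnip, which binds thioredoxin and curbs glucose uptake, stood at 151, 207 and 166 CPM at pH 6.9 and 60.9, 79.0 and 40.5 CPM at pH 7.4 (1.54 ± 0.28, adjusted p = 0.00318). The count stayed at 6 or 7 except without mouse 6 at pH 7.4, where it was 4. Of 29 p53 targets, 5 were higher: Cdkn1a, Sesn1, Plk3 and, chosen after their values were seen, Ak1 and Trp53inp1. They became 4, 3 and 1 without mouse 2, 4 or 6 at pH 6.9 and 2, 3 and 1 without mouse 2, 4 or 6 at pH 7.4, and 3 with the mouse number as a block. Of 73 genes of G2/M and mitosis 0 passed in edgeR, 2 in DESeq2 and 5 in limma-voom, with 8 at an unadjusted p under 0.05 in edgeR and a median of -0.28. Mki67, a marker of cycling cells, stood at 216, 225 and 244 CPM at pH 6.9 and 185, 182 and 209 CPM at pH 7.4 (adjusted p = 0.688).

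Of 27 NRF2 targets, genes induced by oxidants and electrophiles, 7 were higher and 0 lower (median 0.45). The share of higher genes over all genes tested was 2.68%. Both subunits of the enzyme that starts glutathione synthesis were among the 7. Gclm stood at 3053, 3696 and 3608 CPM at pH 6.9 and 1547, 1918 and 1506 CPM at pH 7.4 (1.06 ± 0.15, adjusted p = 0.000593). Gclc stood at 337, 551 and 726 CPM at pH 6.9 and 180, 187 and 176 CPM at pH 7.4 (1.57 ± 0.28, adjusted p = 0.00361). Hmox1, the haem oxygenase, stood at 311, 632 and 532 CPM at pH 6.9 and 62.7, 163 and 57.0 CPM at pH 7.4 (2.38 ± 0.38, adjusted p = 0.00308). The 3 calls held without any 1 library, and the 7 became 7, 3 and 3 without mouse 2, 4 or 6 at pH 6.9 and 3, 5 and 3 without mouse 2, 4 or 6 at pH 7.4.

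Adhesion and signalling genes had members among the most changed, where 2.68% of all genes tested were higher and 3.55% lower. S1pr1, the receptor that draws blood cells towards sphingosine 1-phosphate in blood and lymph (chromosome 3, 115710433 to 115715072, minus strand), stood at 125, 103 and 105 CPM at pH 6.9 and 23.7, 20.4 and 15.9 CPM at pH 7.4 (2.47 ± 0.29, adjusted p = 0.000471). Pecam1, an adhesion protein of endothelium and blood cells, stood at 264, 285 and 359 CPM at pH 6.9 and 134, 104 and 100 CPM at pH 7.4 (1.43 ± 0.23, adjusted p = 0.00187). Icam2, a ligand of the integrin LFA-1, went the other way, with 32.5, 26.0 and 31.5 CPM at pH 6.9 and 78.6, 68.1 and 87.4 CPM at pH 7.4 (-1.38 ± 0.26, adjusted p = 0.00361). Of the 27 tested adhesion and homing receptors 5 were higher, S1pr1, Pecam1, Itgb5, Itga6 and, chosen after its values were seen, Selplg, and 1 was lower, Icam2. The 5 became 4, 3 and 3 without mouse 2, 4 or 6 at pH 6.9 and 3, 4 and 2 without mouse 2, 4 or 6 at pH 7.4. Of 35 cytokine receptor and STAT feedback genes 5 were higher, Csf2rb2, Jak2, Spry1 and, chosen after their values were seen, Csf2rb and Stat3. Csf2rb2, a receptor chain for interleukin 3 in mouse, stood at 37.9, 35.4 and 31.3 CPM at pH 6.9 and 8.07, 6.62 and 5.02 CPM at pH 7.4 (2.41 ± 0.46, adjusted p = 0.00460). This call held without any 1 library, while the 5 became 4, 1 and 1, and 1, 1 and 2, in the order given, and 3 with the mouse number as a block, where Spry1 did not pass (adjusted p = 0.0611).

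The genes with the largest fold changes upwards were picked among those past the threshold without overlap, at a mean of 20 CPM or more in either group. Such a choice favours genes that are low at pH 7.4, so that their low level there is no separate result. Of the 12 largest, Olfm2, a secreted olfactomedin protein, stood at 52.7, 44.6 and 37.7 CPM at pH 6.9 and 1.56, 2.92 and 0.647 CPM at pH 7.4 (4.71 ± 0.84, adjusted p = 0.00385). Htra3, a secreted protease, stood at 138, 100.2 and 144 CPM at pH 6.9 and 11.5, 6.03 and 4.37 CPM at pH 7.4 (4.16 ± 0.61, adjusted p = 0.00201). Itgae, the integrin chain CD103, stood at 111, 73.3 and 82.0 CPM at pH 6.9 and 8.33, 9.73 and 4.21 CPM at pH 7.4 (3.58 ± 0.49, adjusted p = 0.000563). Id3, an inhibitor of basic helix-loop-helix factors, stood at 48.5, 87.6 and 63.2 CPM at pH 6.9 and 10.2, 10.3 and 5.02 CPM at pH 7.4 (2.98 ± 0.43, adjusted p = 0.000742). The others were Ifitm10, Npy, Serinc2, Spsb1, Kcne3, Itgb5, Dhrs3 and Ablim1, with log2 fold changes of 2.96 to 4.56. Except for Itgb5 and Ablim1, which lost it without mouse 2 or mouse 6 at pH 7.4 and, for Itgb5, also without mouse 4 or 6 at pH 6.9, these calls held without any 1 library. The other cultures of pH 7.4, index 707, were not low in the genes described. There Olfm2 stood at 18.6, 57.7 and 14.7 CPM and Htra3 at 106, 143 and 89.3 CPM. Itgae stood at 82.3, 23.1 and 47.0 CPM and Id3 at 62.7, 78.1 and 39.8 CPM.

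Genes of neutrophil progenitors led the lower side. They were low in all 3 libraries at pH 6.9 and abundant in all 3 at pH 7.4. For Prtn3, Ms4a3 and Ctsg, picked by fold change without overlap, the choice itself favours this. Prtn3, the granule protease proteinase 3, stood at 34.3, 31.8 and 22.3 CPM at pH 6.9 and 394, 408 and 783 CPM at pH 7.4 (-4.18 ± 0.81, adjusted p = 0.0171). Ms4a3, a marker of granulocyte and monocyte progenitors, stood at 15.4, 3.97 and 5.58 CPM at pH 6.9 and 236, 175 and 420 CPM at pH 7.4 (-5.22 ± 1.27, adjusted p = 0.0413). Ctsg, cathepsin G, stood at 0, 0 and 0.199 CPM at pH 6.9 and 187, 133 and 596 CPM at pH 7.4 (adjusted p = 0.0458). A count of 0 allows up to 1.83 CPM in mouse 2 and 0.950 CPM in mouse 4, before scaling and for counting error only. Mpo, myeloperoxidase, stood at 1.18, 10.1 and 6.78 CPM at pH 6.9 and 1091, 1042 and 3195 CPM at pH 7.4, and just missed the threshold (adjusted p = 0.0508). Of 18 tested genes of neutrophil and granulocyte progenitors 6 were lower and 1, the lysosomal Cd63, higher, with a median of -2.25. These calls depended on single libraries: the 6 became 2, 0 and 0 without mouse 2, 4 or 6 at pH 6.9 and 2, 3 and 0 without mouse 2, 4 or 6 at pH 7.4, and those of Ctsg and Ms4a3 were lost without any of them. With the mouse number as a block the 6 became 3, and Ctsg, Ms4a3 and Prtn3 had adjusted p = 0.0695, 0.0923 and 0.0633. In RNA of pooled cells, fewer cells of a type and less RNA per cell cannot be told apart.

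Of the 12 largest changes downwards the others were Ccnb1ip1, Nkg7, Clec12a, Ap3s1, Fabp5, Sec24d, Slc28a2, 2610318N02Rik and Tfrc. Fabp5, a fatty acid carrier, stood at 36.1, 16.8 and 10.4 CPM at pH 6.9 and 106, 60.1 and 128 CPM at pH 7.4 (-2.29 ± 0.41, adjusted p = 0.00361). Nkg7, a granule membrane protein, stood at 10.1, 4.89 and 10.6 CPM at pH 6.9 and 71.1, 53.5 and 108 CPM at pH 7.4 (-3.19 ± 0.63, adjusted p = 0.00862). Tfrc, the transferrin receptor that takes up iron, stood at 54.4, 124 and 73.6 CPM at pH 6.9 and 397, 223 and 403 CPM at pH 7.4 (-2.01 ± 0.40, adjusted p = 0.00969). The calls of Fabp5, Nkg7 and 2610318N02Rik held without any 1 library, and that of Tfrc was lost without mouse 6 at pH 6.9.

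The same progenitor genes were high in one fresh library as well. The summed CPM of 5 neutrophil progenitor markers was 35.1 to 50.9 at pH 6.9, index 706, and 1793 to 5211 at pH 7.4, index 708, and it was 5565 in fresh mouse 5 of index 701 and 77.5 in fresh mouse 3 of the same index. In the cultures of pH 7.4, index 707, it was 46.1 to 74.9, and in those of pH 6.9, index 705, it was 168 and 169. Markers of mature neutrophils summed to at most 6.72 CPM at pH 6.9 and 2.33 CPM at pH 7.4, with 4 and 2 of the 5 at 0 in all 3 libraries. Markers of mast cells or basophils summed to 2.37 to 24.1 CPM at pH 6.9 and 38.7 to 181 CPM at pH 7.4. Erythroid markers summed to 14.8, 0.916 and 110 CPM in mice 2, 4 and 6 at pH 6.9 and 2.34, 0 and 8.90 CPM at pH 7.4, ranges that overlap. The sums for other cells were 170 to 194 CPM at pH 6.9 and 169 to 226 CPM at pH 7.4 for monocytes or macrophages, 29.3 to 50.9 and 21.6 to 35.8 for B cells, 14.4 to 27.8 and 13.5 to 42.4 for T cells, 13.6 to 23.2 and 16.4 to 23.2 for dendritic cells, and 20.1 to 22.6 and 8.09 to 17.7 for endothelium, with stromal markers below 7.38 CPM or at it in every library of both groups. The part of the progenitor markers in the lower growth genes was not tested.

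Of 10 LT-HSC markers, all of them detected in both groups, Ly6a was the only 1 past the threshold. Their sum was 1149 to 1622 CPM at pH 6.9 and 386 to 634 CPM at pH 7.4. Much of it was Ly6a, the surface protein Sca-1 used to sort these cells (chromosome 15, 74994877 to 74998031, minus strand), at 803, 1087 and 952 CPM at pH 6.9 and 172, 344 and 112 CPM at pH 7.4 (2.18 ± 0.38, adjusted p = 0.00578). In the other cultures of pH 7.4, index 707, the sum was 885 to 1498 CPM and Ly6a stood at 444, 1013 and 1078 CPM. The sum was 1083 and 1426 CPM at pH 6.9, index 705, and 556 to 825 CPM in the fresh libraries. Fgd5, a marker of LT-HSCs, had a negative fold change that did not pass (-0.44, adjusted p = 0.880). Procr, the protein C receptor, had 20.7, 34.2 and 7.98 CPM at pH 6.9 and 7.81, 13.2 and 4.85 CPM at pH 7.4, which overlap (adjusted p = 0.146). The stem cell factors Hlf and Mecom did not pass either (adjusted p = 0.377 and 0.424). Among 27 stem cell surface genes Ly6a, Cd81 and Itga6 were higher (median 0.69), and 3 of 30 stem cell transcription factors were higher, Hmga2 and Runx1 among them (median 0.55). Hmga2, a chromatin protein of fetal and activated stem cells, stood at 78.7, 95.9 and 34.9 CPM at pH 6.9 and 10.9, 21.01 and 4.21 CPM at pH 7.4 (2.53 ± 0.57, adjusted p = 0.0161). Its call was lost without mouse 4 at pH 6.9 or mouse 2 or 6 at pH 7.4, that of Cd81 without mouse 2 or 6 at pH 7.4, and those of Itga6 and Runx1 without any 1 of the 6 libraries. With the mouse number as a block Itga6 and Runx1 had adjusted p = 0.0585 and 0.0584.

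Some other lists had members past the threshold that were few in number. They were 8% of DNA replication, 27.3% of monocyte and macrophage, 13.6% of MHC class I and 2.13% of interferon response genes. Over all genes tested, 6.24% passed. Of 50 genes of DNA replication Lig1 was higher and Cdc6, Gins1 and, chosen after its values were seen, Rfc5 were lower (median -0.22). Of 11 monocyte and macrophage genes Ctss and Csf1r were higher and Ccl9 lower, and of 22 genes of MHC class I and peptide loading H2-T23 and H2-Q6 were higher and Calr lower. Of 47 interferon response genes, Trim30a, chosen after its values were seen, was the 1 past the threshold, and the median was 0.64. Without 1 library the call of Cdc6 was kept in 0 of 6 fits, those of Lig1, Gins1 and Csf1r in 1 of 6, that of Ccl9 in 2 of 6 and that of Ctss in 3 of 6, while that of H2-T23 held in all 6.

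**Figure D4:**
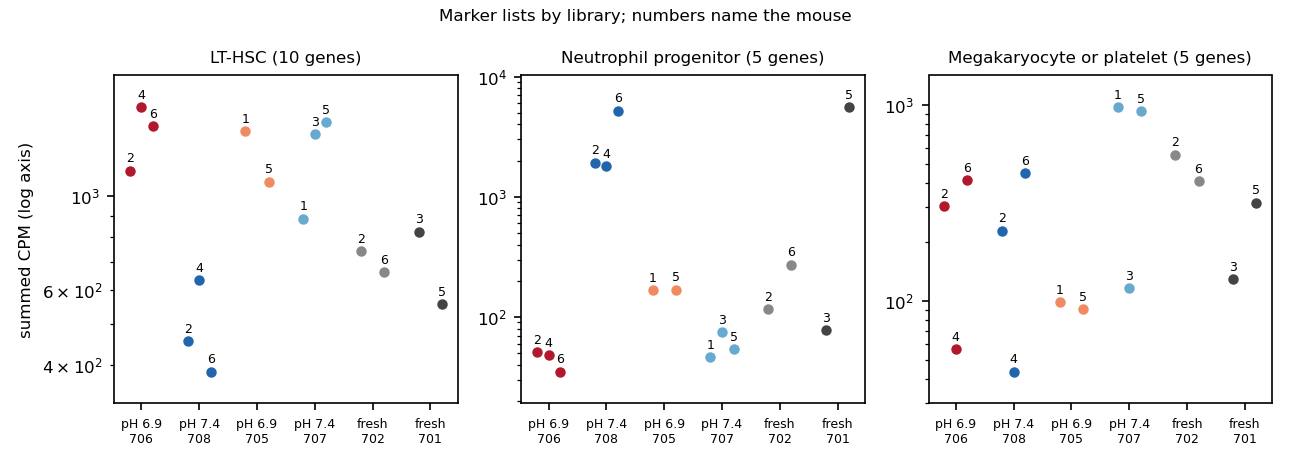
Summed CPM (log axis) of marker genes of LT-HSCs, neutrophil progenitors and megakaryocytes or platelets in each library, by group and first index, with the mouse number above each point. Index 708 and fresh mouse 5 stand at 1793 CPM or more in neutrophil progenitor markers, all other libraries at 272 or less.

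The same contrast of pH 6.9 and pH 7.4 in the other mice, with index 705 (2 libraries) and index 707 (3 libraries), shares no library with the one above. There 1187 genes passed (10.6%), 554 higher and 633 lower at pH 6.9. Of the genes past the threshold in both, 119 were higher in index 706 and lower in index 705 and 180 the reverse, and 2 had the same direction. These 301 genes are 43.0% of the 700 and 25.4% of the 1187. Over all genes tested, the fold changes of the contrasts had a Pearson's r of -0.25 and a Spearman's rho of -0.32, a description across genes, since genes are no replicates. The difference between the contrasts passed in 1934 genes (17.2%; 8.72% with the higher and 8.51% with the lower change in index 706 over 708), and in 584 of the 700 (83.4%).

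**Figure D5:**
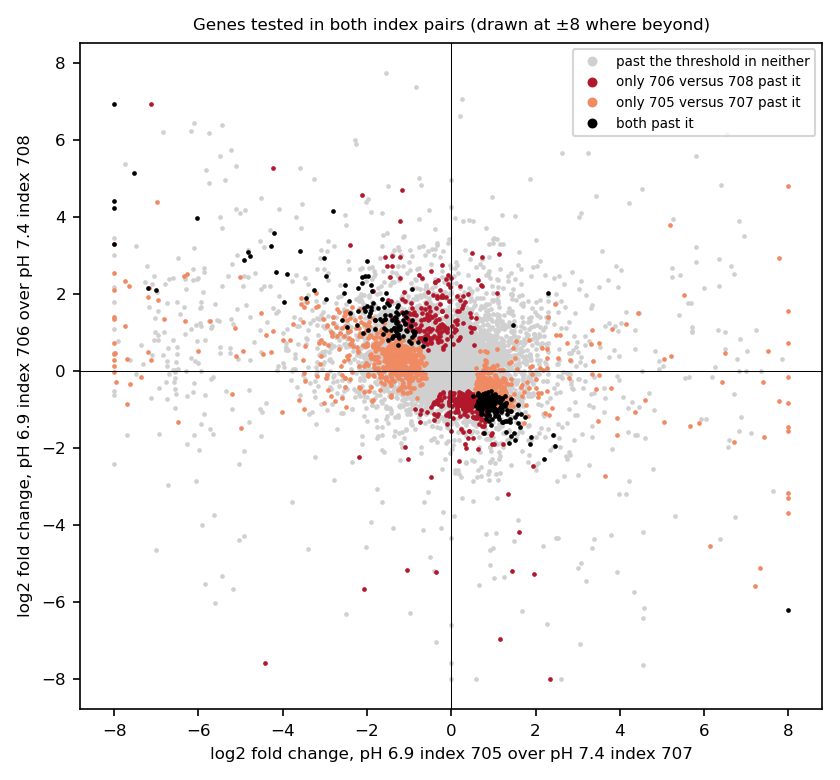
Log2 fold change of each tested gene in index 706 over index 708 (vertical) and in index 705 over index 707 (horizontal), both pH 6.9 over pH 7.4, by where the adjusted p passed 0.05. Of the genes past it in both (black), 299 lie in the quadrants of opposite sign and 2 in those of the same sign.

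Several of the gene groups above had the opposite direction in the other mice, and others did not. Srm stood at 732 and 779 CPM at pH 6.9 with index 705 and 319, 272 and 262 CPM at pH 7.4 with index 707 (1.41 ± 0.23, adjusted p = 0.00147). Cdkn1a stood at 110 and 81.7 CPM at pH 6.9 with index 705 and 211, 399 and 229 CPM at pH 7.4 with index 707 (-1.56 ± 0.30, adjusted p = 0.00354). So spermidine synthase was high and p21 low in indices 705 and 708, which carry different pH labels, and the reverse held in 706 and 707. Of the ribosome biogenesis factors 23 were higher and 1 lower at pH 6.9 there, of mitochondrial ribosomal proteins 28 and 0, of TRiC and prefoldin 8 and 0, and of lysosomal genes 1 higher and 12 lower, against 4.93% higher and 5.64% lower over all genes. Other lists gave no such reversal as a whole. Neutrophil progenitor genes had a median of -0.39 there and 0 past the threshold. The difference between the contrasts still passed in 4 of these 18. Among the 4, Prtn3 had 138 and 156 CPM at pH 6.9 with index 705. It had 32.3, 62.4 and 47.0 CPM at pH 7.4 with index 707 (1.62 ± 0.80, adjusted p = 0.232). Ms4a3 and Clec12a had negative fold changes there (-0.37 and -0.48). G2/M genes had 17 lower and a median of -0.86, and MHC class I genes had 6 higher and 2 lower and a median of 0.45. Citric acid cycle genes had 4 higher and 3 lower with a median of -0.05, and tRNA synthetase genes 4 higher and 1 lower with a median of -0.07. S1pr1 had 15.6 and 7.66 CPM at pH 6.9 with index 705 and 93.1, 63.7 and 99.2 CPM at pH 7.4 with index 707 (-2.97 ± 0.37, adjusted p = 0.000335).

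The 2 genes that passed in the same direction in both were H2-Q6 and H2ac18, both higher at pH 6.9. H2-Q6, a class Ib histocompatibility gene, stood at 87.6, 48.9 and 97.7 CPM at pH 6.9 and 35.1, 39.9 and 27.8 CPM at pH 7.4 (1.19 ± 0.30, adjusted p = 0.0251), and in the other mice at 99.7 and 152 CPM at pH 6.9 and 31.4, 62.7 and 40.6 CPM at pH 7.4 (1.48 ± 0.33, adjusted p = 0.00860). H2ac18, a replication-dependent histone H2A gene, stood at 11.2, 2.75 and 4.99 CPM at pH 6.9 and 1.56, 1.17 and 1.62 CPM at pH 7.4 (2.04 ± 0.58, adjusted p = 0.0423). Both belong to families of near-identical genes whose reads the counting could have split, and the call of each was lost without several libraries, without mouse 6 at pH 7.4 among them (adjusted p up to 0.150 and 0.185). H2ac18 had adjusted p = 0.0749 with the mouse number as a block. Its call was lost under 12 of 17 alternatives, among them limma-voom and the fits of only the 6 libraries compared, and that of H2-Q6 under 7 of 17.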

How the data were processed

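RNA of 18 libraries of sorted mouse LT-HSCs was measured with SMART-Seq v4 and Nextera XT kits, without strand information. The submitters' processing notes name kallisto and mm10 and no version. The values the authors deposited are expected counts per gene symbol, all whole numbers, for 21003 symbols. The sources used here do not give how they were summed to genes.

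Counts were kept by filterByExpr over the 6 sets of group and first index (11226 genes), scaled by TMM and put to the robust quasi-likelihood test of edgeR 4.0.16 (R 4.3.3), with 1 coefficient per set over 15 libraries. Left out were 3 libraries with a total under 1e+05 or fewer than 10000 genes detected: fresh mouse 1 and 4, and pH 6.9 index 705 mouse 3. Adjusted p values are Benjamini-Hochberg over all genes tested, with a threshold of 0.05. Errors of fold changes are standard errors (SE), and log2 fold changes are pH 6.9 over pH 7.4. CPM are per 1e+06 TMM-scaled counts. Similarities use log2 CPM with a prior count of 2, and ratios by mouse number a pseudocount of 1. Floors are 3 counts of a library's total and cover counting error only, since reads carry no molecular identifiers.

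The design names 6 individual mice, so the mouse number pairs libraries. The correlation of same-numbered deviations between index 706 and 708 was 0.028, 0.138 and 0.127 in mice 2, 4 and 6, and a fit with the number as a block was an alternative. No 2 libraries within index 706 or within index 708 agreed within sampling noise, and other pairs were not compared. Alternatives were DESeq2 1.42.0 and its size factors, limma 3.58.1 voom with quality weights, other filters, other sets of libraries, a test against a 1.5-fold change and leaving out each library. Counts between all sets were added after the data were seen.

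The comparison and the 46 gene lists (1581 entries, 1398 tested) were chosen with earlier results of these data known. Genes named are the 12 with the largest fold per direction among those past the threshold at 20 CPM or more without overlap, up to 3 per list by p, 20 genes of polyamine, stem cell and transport biology, and for the difference between index pairs the 5 with the smallest p and those with the same direction. Coordinates are from GENCODE M21 on GRCm38, and promoters from RefSeq. Some genes that the rule names are not reported here. The edgeR fit of 15 libraries was also run on simulated counts with known changes. That run does not bear on how the number of calls depends on the libraries left out. Figures were drawn with matplotlib 3.10.9.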

Additional observations from a re-analysis of the deposited data

Results flagged for a closer look

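The change between pH 6.9 and pH 7.4 differed between mice 2, 4 and 6 (index 706 versus 708) and mice 1, 3 and 5 (index 705 versus 707) in 1934 genes by the interaction term of edgeR's fit. In that fit mouse 3 has a library at pH 7.4, index 707, but none at pH 6.9, index 705. Mouse numbers, indices and libraries change together between these contrasts and cannot be told apart. Among named genes, the adjusted p of this difference was 3.59e-06 for S1pr1, 1.21e-05 for Lpcat2, 1.21e-05 for Rab38, 1.21e-05 for Hbp1, 1.33e-05 for Srm, 1.55e-05 for Cdkn1a, 2.71e-05 for Eif5a, 0.000252 for Odc1, 0.000615 for Txnip, 0.00100 for Slc16a1, 0.00613 for Sat1 and 0.0129 for Smox.

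Lpcat2, a lysophospholipid acyltransferase, stood at 121, 91.9 and 191 CPM at pH 6.9, index 706, and at 34.6, 31.7 and 25.6 CPM at pH 7.4, index 708. In the other mice it stood at 0 and 1.39 CPM at pH 6.9, index 705, and at 218, 96.3 and 173 CPM at pH 7.4, index 707. Rab38, a GTPase of lysosome-related organelles, stood at 516, 520 and 521 CPM at pH 6.9, index 706, and 226, 218 and 195 CPM at pH 7.4, index 708, and in the other mice at 240 and 179 CPM at pH 6.9 and 538, 434 and 581 CPM at pH 7.4. Hbp1, a repressor linked to cell cycle exit, stood at 226, 282 and 287 CPM at pH 6.9, index 706, and 96.0, 130 and 94.5 CPM at pH 7.4, index 708, and in the other mice at 66.0 and 57.3 CPM at pH 6.9 and 213, 190 and 241 CPM at pH 7.4. In each of these genes the high values were in index 706 and index 707. Slc16a1, Sat1 and Smox passed only in mice 2, 4 and 6, and the difference itself passed in each of them.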

How the results depend on the processing

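The count of 700 genes between index 706 and index 708 kept within 1.5 times with DESeq2 size factors, no filter, a filter of 5 CPM in 3 libraries and the replicate block (682, 1042, 718 and 636, of which 558 were among the 700 under the block). It moved to 1099 with DESeq2, 1670 with limma-voom, 1347 with only the 6 libraries compared, 1646 with these and DESeq2, 73 against a 1.5-fold change, 10 with 16 libraries and 0 with all 18 libraries, with 583 at an unadjusted p under 0.05. Without 1 library it was 163 to 479. Adding the left-out libraries changes neither group compared, but changes the scaling, the spread shared by all sets and the genes tested (11169 with 16 libraries and 10745 with 18). No gene of the 700 changed direction in any of these fits. The difference between the index pairs moved from 1934 genes to 159 with all 18 libraries and to 934 with 16, and was 1368 to 2016 without 1 library and 1614 with the replicate block. The count of 0 between index 706 and index 707 became 6 with no filter and 2 with DESeq2. Of 111 called genes named, 58 passed in each of the 6 fits without 1 library, 9 lost the call under the mouse-number pairing, and 111 lost it with all 18 libraries. Under the pairing, 4 of the list counts printed moved by over 1.5 times, each to 3, and no other call of a named gene changed. The fits with 16 libraries and with DESeq2 on the 6 libraries were added after the data were seen. Depth limits low genes: 3 counts are 0.463 to 1.83 CPM in these 6 libraries, and each group has 3 mice.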

Other observations

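Of 29 megakaryocyte and platelet genes 0 passed in edgeR between pH 6.9, index 706, and pH 7.4, index 708, against 3 in DESeq2 and 3 in limma-voom, with 5 at an unadjusted p under 0.05 in edgeR and a median log2 fold change of 0.64. The median log2 ratio of pH 6.9 to pH 7.4 over the 29 was 0.63, 0.52 and 0.85 in mice 2, 4 and 6, with 5, 9 and 6 of them lower at pH 6.9. The summed CPM of 5 markers was 304, 56.5 and 410 in mice 2, 4 and 6 at pH 6.9 and 227, 43.4 and 446 at pH 7.4, and mouse 4 was lowest in both. Pf4, platelet factor 4, stood at 127, 0.916 and 238 CPM at pH 6.9 and at 106, 8.17 and 315 CPM at pH 7.4. The pattern was noticed in these data and was not tested. One erythroid gene was high in a single library: Hba-a1, a globin, stood at 2.37, 0 and 100.1 CPM at pH 6.9 and at 0.260, 0 and 0.162 CPM at pH 7.4.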
